A study of Homo sapiens with 51 samples.

Results

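The genes described here are 10 components of the tight junction: the claudins CLDN1, CLDN3, CLDN4, CLDN7 and CLDN12, the MARVEL-domain proteins OCLN (occludin), MARVELD2 (tricellulin) and MARVELD3, and the plaque proteins TJP3 (ZO-3) and CGN (cingulin). They were chosen by symbol, and all 10 were among the 25421 gene rows of the count table. Their counts came from 51 RNA-seq libraries of 5 human pancreatic ductal adenocarcinoma (PDA) cell lines, in 17 groups of 3 libraries. All 10 passed the filter on low counts in the fit over the 3 transduced lines, 8 of 10 did in PANC1 alone (without TJP3 and CGN) and 9 of 10 in PK45H alone (without CLDN3).

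HPAFII and PATU8988S were measured untreated only. KP4, PANC1 and PK45H had 5 groups each: untreated, mCherry, OVOL2, mCherry + M2rtTA and OVOL2 + M2rtTA. Transduced cells received a lentiviral open reading frame for OVOL2, a zinc-finger transcription factor, or for mCherry, a fluorescent control protein, at 2 infectious units per cell and in 8 µg/ml polybrene. In the M2rtTA groups a second virus brought M2rtTA, which drives tetracycline-responsive promoters when doxycycline is present. All transduced cells, with or without M2rtTA, were kept from the next day in puromycin (2.5 µg/ml) and doxycycline (0.6 µg/ml), and RNA was taken after 6 days in all. Each transduction was made in triplicate, and the transduced lines are called morphogenic in the labels. Whether the 3 untreated libraries of a line came from separate cultures is not stated, so p-values measure the spread between these libraries, which may be technical. Each line derives from a single tumour, and in bulk RNA fewer expressing cells and less RNA per cell cannot be told apart.

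Tight junctions seal the space between neighbouring epithelial cells and separate the apical from the basolateral membrane. Claudins form the paired strands and set which ions pass. Occludin and MARVELD3 lie along these strands, tricellulin sits where the corners of 3 cells meet, and ZO-3 and cingulin tie the strands to actin from the cytoplasm. In pancreatic ductal epithelium claudins mark the differentiated, polarised state, and carcinoma cells of mesenchymal character commonly have fewer of them. OVOL2 is known as a repressor of ZEB1 and of mesenchymal transition.

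Of the 10 genes, 9 had promoter entries in RefSeq (GRCh38.p14), with 12 entries between them because CLDN7, OCLN and TJP3 have 2 starts each. MARVELD3 had none. Each window ran from 250 bases before to 50 bases after the start. The windows below belong to the 4 genes that rose with OVOL2 and M2rtTA and that have an entry, so that the letters can be set beside their values. Capitals mark the E-box letters CAGGTG or, for the other strand, CACCTG, the type of site known to bind ZEB and SNAIL repressors. CLDN3 (chr7:73770221-73770520, minus strand) and CLDN4 (chr7:73830746-73831045, plus strand) are neighbours, with 60.7 kb between the genes. CLDN7 lies at chr17:7262429-7262728 (minus strand) and TJP3 at chr19:3721487-3721786 (plus strand), each shown for the downstream of its 2 starts. For both genes the window shown is the one with E-box matches. For CLDN7, 1 GENCODE transcript starts in the window shown and 3 in the upstream one. For TJP3, 2 start in the window shown and 1 in the upstream one.
CLDN3 promoter: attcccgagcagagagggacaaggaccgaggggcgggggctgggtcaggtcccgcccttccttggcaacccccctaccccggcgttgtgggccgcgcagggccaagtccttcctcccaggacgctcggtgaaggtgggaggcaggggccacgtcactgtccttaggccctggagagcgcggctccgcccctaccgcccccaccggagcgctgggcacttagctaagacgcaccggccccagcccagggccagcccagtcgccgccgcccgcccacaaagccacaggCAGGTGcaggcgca
CLDN4 promoter: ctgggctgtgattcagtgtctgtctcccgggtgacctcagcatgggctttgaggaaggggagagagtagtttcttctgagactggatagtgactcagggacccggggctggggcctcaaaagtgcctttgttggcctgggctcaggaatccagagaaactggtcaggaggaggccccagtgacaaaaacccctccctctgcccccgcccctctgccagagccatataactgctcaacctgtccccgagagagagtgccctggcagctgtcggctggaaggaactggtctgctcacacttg
CLDN7 promoter, downstream start: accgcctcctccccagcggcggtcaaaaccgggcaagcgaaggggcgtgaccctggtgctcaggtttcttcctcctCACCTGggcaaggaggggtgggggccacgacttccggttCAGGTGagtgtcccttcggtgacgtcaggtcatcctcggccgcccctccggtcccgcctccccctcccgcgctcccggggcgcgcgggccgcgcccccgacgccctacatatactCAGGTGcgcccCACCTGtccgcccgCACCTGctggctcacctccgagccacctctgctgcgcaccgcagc
TJP3 promoter, downstream start: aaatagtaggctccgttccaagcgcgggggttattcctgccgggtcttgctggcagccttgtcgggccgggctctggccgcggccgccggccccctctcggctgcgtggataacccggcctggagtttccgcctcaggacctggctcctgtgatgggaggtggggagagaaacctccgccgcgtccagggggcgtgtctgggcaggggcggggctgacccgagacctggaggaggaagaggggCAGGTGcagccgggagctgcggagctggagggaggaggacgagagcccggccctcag

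The downstream CLDN7 window held 5 E-box matches, and its upstream window held 0. Of 35116 RefSeq promoter windows of this length, 20.6% held at least 1 match, 3.49% at least 2, and 0.094% at least 5. CLDN3 had 1 match, TJP3 had 1 at its downstream start and 0 at its upstream start, and OCLN had 1 and 2 at its starts. CLDN1, CLDN4, CLDN12, MARVELD2 and CGN had 0. The OVOL core letters CCGTTA, or TAACGG on the other strand, were in 0 of the 12 windows and in 3.07% of all windows. The grainyhead-like letters AACCNGTT, or AACNGGTT on the other strand, had 1 match, in CGN, and were in 1.73% of all windows. A match is a run of letters and was not tested for binding, and the counts per gene do not show which start was used.

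Library totals ran from 1165399 to 7490556 counts with a median of 4771717, and the lowest belonged to HPAFII replicate 2. OVOL2 stood at 12, 7 and 0 counts in KP4 mCherry and at 10, 7 and 4 in KP4 OVOL2. Over the lines, OVOL2 counts were not detectably different without M2rtTA (log2 fold change -0.09, SE 0.46, adjusted p = 0.926). With M2rtTA they rose by 2.15 (SE 0.44, adjusted p = 0.00021). Whether the counted end of the transcript lies within the introduced reading frame is not stated, so these counts do not check the labels. EPCAM, an adhesion protein that binds claudin-7, rose in both arms, by 2.19 (SE 0.11) without and 2.26 (SE 0.11) with M2rtTA. The keratins KRT8, KRT18, KRT19 and KRT7 of ductal cells were counted in every library. CDH1 (E-cadherin) averaged 76.3 and 108 CPM (counts scaled to the size of the library) in HPAFII and PATU8988S and 4.98 to 7.25 in the untreated other lines. VIM (vimentin) averaged 1878 and 2991 CPM in untreated KP4 and PANC1 and 143 to 225 in the others. ZEB1 averaged 17.1 to 23.5 in KP4, PANC1 and PK45H and 4.48 to 4.64 in HPAFII and PATU8988S. FN1 averaged 4.78, 3.55, 3.09, 2.40 and 4.69 CPM in untreated HPAFII, PATU8988S, KP4, PANC1 and PK45H. CDH2 averaged 1.01, 2.05, 3.58, 11.2 and 1.19 in that order of lines. Neither divided the lines as ZEB1 did. In the same order KRT7 averaged 4085, 842, 167, 174 and 1488, and KRT19 771, 270, 20.1, 471 and 109. KRT7 in PK45H and KRT19 in PANC1 thus exceeded PATU8988S. For KRT8 and KRT18, KP4, PANC1 and PK45H all averaged less than HPAFII and PATU8988S. The endocrine list, with INS, GCG and CHGA, summed to at most 0.819 CPM in any group, the 4 acinar genes to 1.55 to 9.45, the 4 fibroblast genes to 7.04 to 50.6, the 3 endothelial genes to 5.17 to 11.3 and the 2 leukocyte genes to 0.583 to 5.30. Their part in any result was not tested.

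In the untreated lines, most of these junction genes were higher in HPAFII and PATU8988S than in KP4, PANC1 and PK45H. CLDN7, a claudin of the lateral membrane, showed a wide gap. Its levels were 176, 78.9 and 176 CPM in the HPAFII libraries, 261, 299.8 and 326 in PATU8988S, 4.93, 3.61 and 3.42 in KP4, 12.7, 15.04 and 21.0 in PANC1, and 5.60, 5.05 and 2.89 in PK45H. Every library of the first pair of lines lay above every library of the other 3 lines. A gene was said to pass where edgeR's quasi-likelihood test gave a Benjamini-Hochberg adjusted p under 0.05. The log2 difference between the means of the 2 and of the 3 lines was 4.97 (SE 0.21, adjusted p = 4.5e-10). Of the 10 genes, 7 passed the test and all 7 were higher in HPAFII and PATU8988S. Of 13785 genes tested, 34.8% passed in either direction and 17.4% were higher.

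CLDN3, a sealing claudin, differed by 4.13 on the log2 scale (SE 0.38, adjusted p = 1.1e-06). It stood at 46.6, 18.7 and 40.4 CPM in HPAFII and 79.8, 104 and 79.2 in PATU8988S, against 0.289 to 13.8 in the 9 libraries of the other lines. CLDN4, which restricts cation passage, differed by 1.72 (SE 0.17, adjusted p = 2.1e-06). Its levels were 46.1 to 66.3 CPM in HPAFII and 73.0 to 74.5 in PATU8988S, and 3.84 to 11.3 for KP4, 25.8 to 35.9 for PANC1 and 29.6 to 36.4 for PK45H. KP4 thus held less CLDN4 than the other untreated lines, with no overlap of libraries. CLDN12 differed by 0.48 (SE 0.17, adjusted p = 0.043), and this call was lost in 11 of 15 fits that left out 1 library. CLDN1, the claudin of the epidermal barrier, did not pass (0.19, SE 0.13, adjusted p = 0.295). It was highest in PK45H (77.0, 82.3 and 58.1 CPM) and lowest in PANC1 (14.5, 14.6 and 15.8 CPM), with HPAFII, PATU8988S and KP4 overlapping between these.

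Among the MARVEL genes the untreated lines were less clearly apart. OCLN stood at 53.7, 24.2 and 47.7 CPM in HPAFII, 60.3, 66.3 and 72.9 in PATU8988S, 20.6, 16.3 and 62.2 in KP4, 52.3, 40.8 and 85.4 in PANC1, and 10.5, 14.8 and 59.8 in PK45H. In each of the last 3 lines replicate 3 was the highest library, and these libraries overlapped with those of HPAFII and PATU8988S. The difference did not pass (0.49, SE 0.38, adjusted p = 0.341), but it did without PK45H replicate 3 (0.87, adjusted p = 0.036). MARVELD2 had 247, 8480 and 281 counts in HPAFII, which is 79.8, 6621 and 75.7 CPM. HPAFII replicate 2 stood 82.9-fold above the next library of its group. With it the difference was 2.78 (SE 0.77, adjusted p = 0.0113), and without it 0.33 (adjusted p = 0.557). MARVELD3 had 47, 61 and 76 counts in HPAFII and 336, 74 and 60 in PATU8988S, the first of which stood apart. Its difference did not pass (0.56, SE 0.76, adjusted p = 0.610), and was 1.71 (adjusted p = 0.044) without PANC1 replicate 3 and -0.045 without PATU8988S replicate 1.

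The plaque genes TJP3 and CGN were low in all lines and higher in the first pair. TJP3 had 56, 5 and 30 counts in HPAFII and 27, 43 and 26 in PATU8988S, against 6, 1 and 0 in KP4, 2 in each PANC1 library, and 2, 1 and 2 in PK45H. PANC1 and PK45H were at or under the floor of 3 counts a library, so the fitted difference of 4.51 (SE 0.42, adjusted p = 1.1e-06) depends on the prior count and is no bound. CGN had 42, 7 and 31 counts in HPAFII and 17, 22 and 26 in PATU8988S, against 0 to 16 in the other lines, and differed by 2.71 (SE 0.37, adjusted p = 4.2e-05). Both genes had their lowest HPAFII count in replicate 2, the library with the lowest total. Scaled to library size, TJP3 was still lowest there (3.90 CPM against 18.1 and 8.08), as was CGN (5.47 against 13.6 and 8.35). CLDN1, CLDN3, CLDN4, CLDN7 and OCLN were also lowest in CPM in that HPAFII library, while CLDN12, MARVELD2 and MARVELD3 were highest.

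PATU8988S and HPAFII themselves differed in 2 of the 10 genes, against 20.2% of all genes tested. CLDN7 was higher in PATU8988S by 1.01 (SE 0.29, adjusted p = 0.024), with 78.9 CPM in HPAFII replicate 2 and 176 in each other HPAFII library. This call did not hold in every fit that left out 1 library. MARVELD2 was lower there by the fit (-4.53, adjusted p = 0.030), a direction that turned to 0.37 (adjusted p = 0.763) without HPAFII replicate 2.

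**Figure D1:**
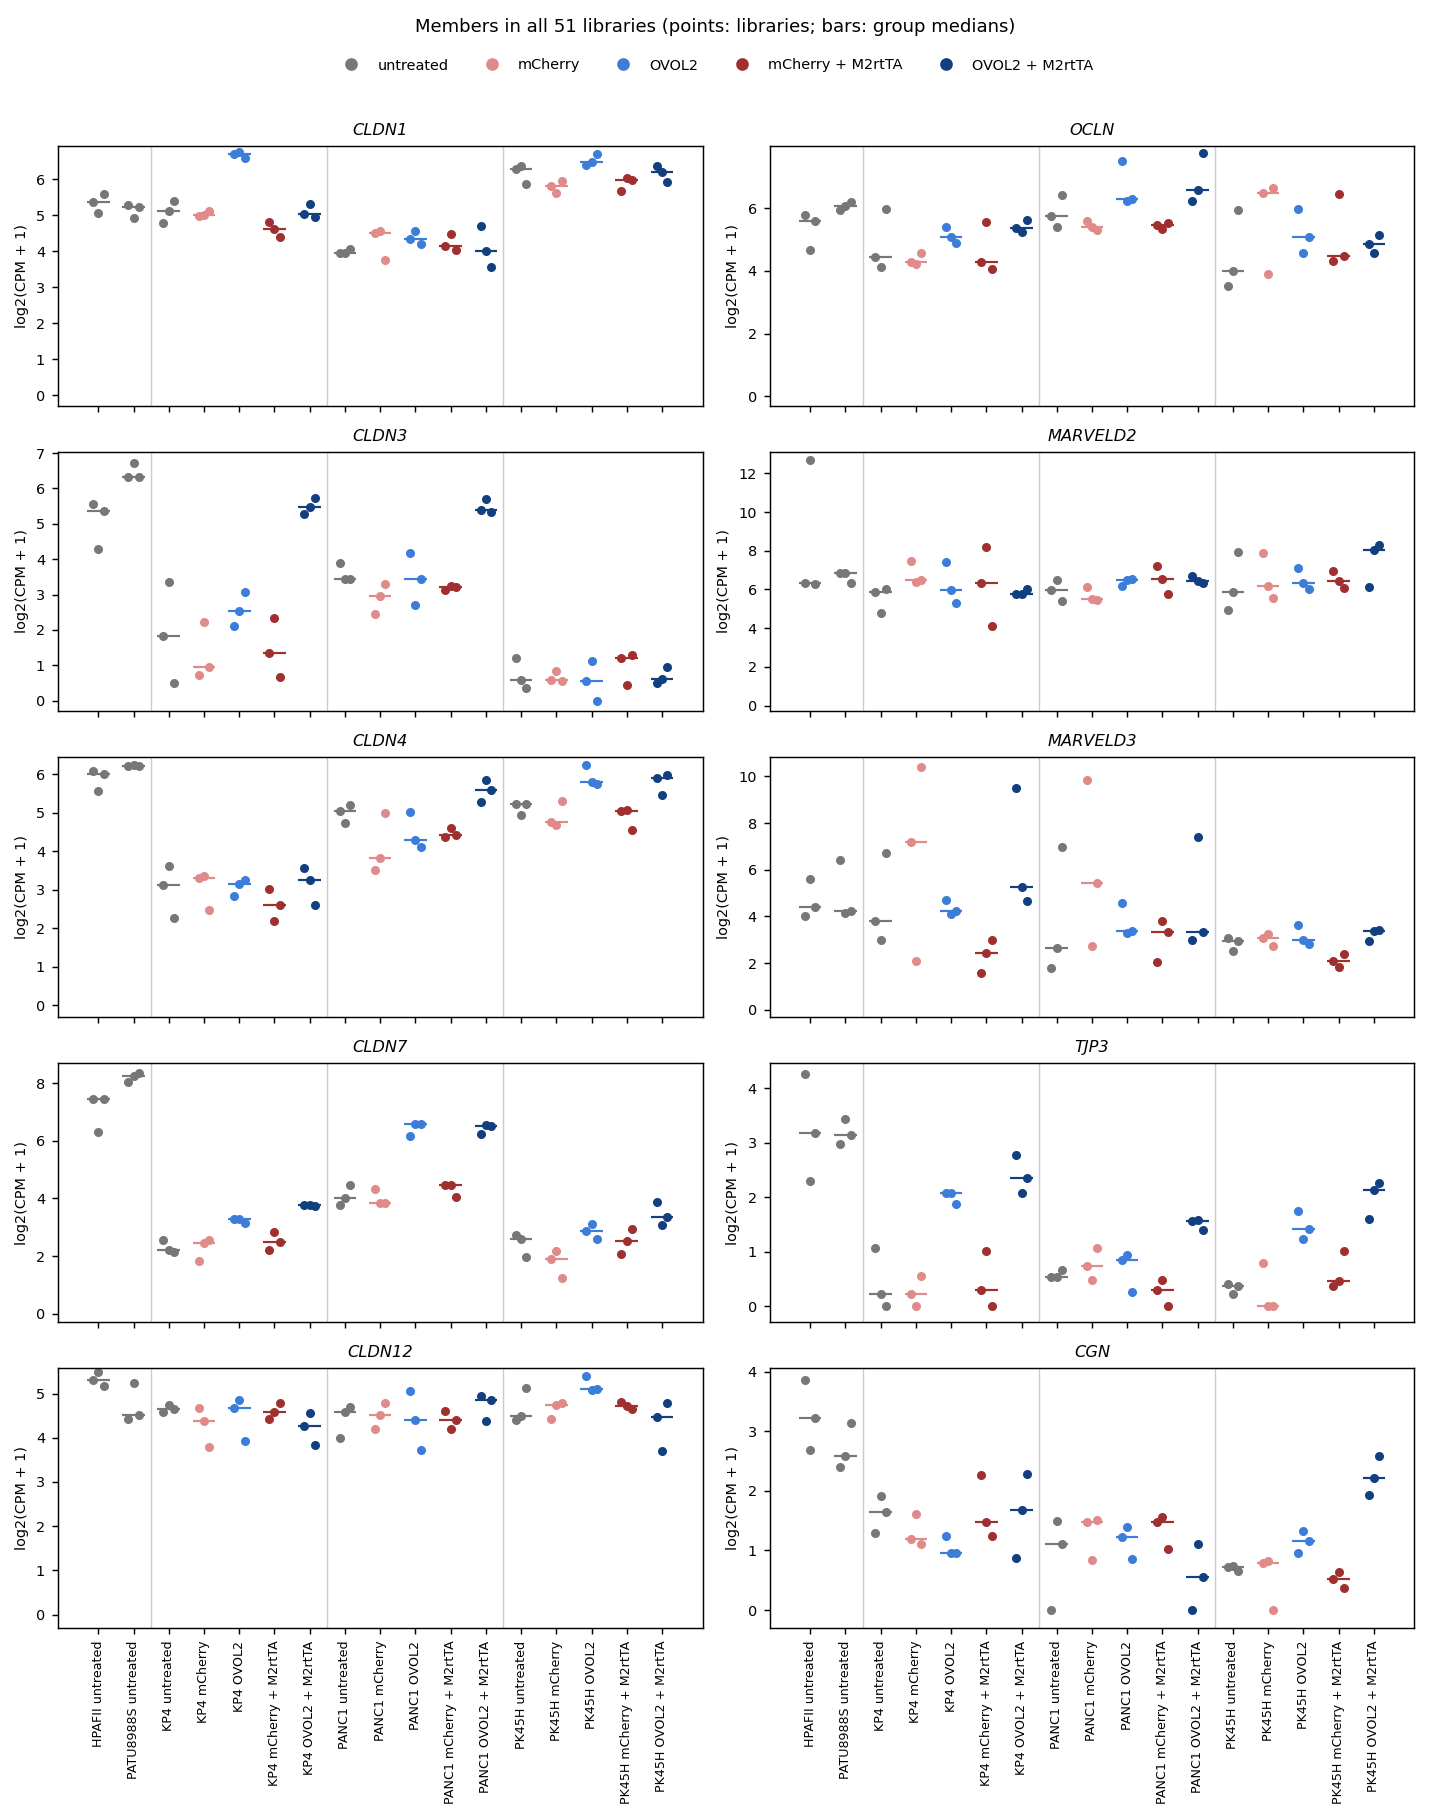
Level of each gene in all 51 libraries, as log2(CPM + 1) with TMM scaling, by group on the horizontal axis. Points are libraries and bars are group medians. CLDN7 stands highest in HPAFII and PATU8988S, CLDN3 rises in KP4 and PANC1 OVOL2 + M2rtTA but not in PK45H, and single libraries of MARVELD2 and MARVELD3 stand far above their group.

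The first question of the transductions was whether OVOL2 changed these genes relative to mCherry. Without M2rtTA, 4 of the 10 passed over the 3 lines: CLDN7, TJP3 and CLDN1 were higher and MARVELD3 was lower. Of 14943 genes tested, 18.1% passed, 9.32% higher and 8.81% lower. The median log2 fold change of the 10 genes was 0.46, beside 0.00098 for all genes tested. With M2rtTA, 5 of the 10 passed, all higher: CLDN3, CLDN4, CLDN7, TJP3 and MARVELD3. There 32.9% of all genes passed and 15.7% were higher, and the medians were 0.75 for the 10 genes and 0.033 for all. The arms have separate control libraries.

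CLDN7 rose in both arms. In KP4 it went from 2.58, 4.52 and 4.83 CPM with mCherry to 8.86, 8.75 and 7.83 with OVOL2, and from 3.59, 6.13 and 4.66 to 12.7, 12.6 and 12.3 with M2rtTA. In PANC1 it went from 18.9, 13.4 and 13.2 to 71.1, 94.7 and 95, and from 20.9, 20.9 and 15.6 to 73.8, 93.2 and 89.95 with M2rtTA. In PK45H it went from 2.70, 3.49 and 1.38 to 6.38, 7.57 and 4.98, and from 3.25, 4.81 and 6.67 to 13.5, 7.5 and 9.23 with M2rtTA. In each line and arm all OVOL2 libraries lay above all mCherry libraries. Over the lines CLDN7 rose by 1.69 on the log2 scale without M2rtTA (SE 0.17, adjusted p = 3.3e-09) and by 1.55 with it (SE 0.16, adjusted p = 1.2e-09). Within lines it passed in KP4 (1.11 and 1.40) and PANC1 (2.54 and 2.20), and in PK45H it missed the threshold in both arms (adjusted p = 0.064 and 0.060). The test of a difference between lines gave adjusted p = 0.055 without and 0.099 with M2rtTA. The difference between arms was -0.14 (SE 0.23, adjusted p = 0.785).

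CLDN3 changed in a line-dependent way. With M2rtTA it went from 7, 16 and 3 counts to 224, 258 and 203 in KP4, and from 35, 44 and 40 to 168, 358 and 166 in PANC1. In PK45H it had 9, 2 and 10 counts with mCherry and 2, 2 and 4 with OVOL2. KP4 and PANC1 thus gained CLDN3 with no overlap of libraries, while PK45H stayed at a few counts. The log2 fold change was 4.48 in KP4 (SE 0.76, adjusted p = 0.0008) and 2.45 in PANC1 (SE 0.32, adjusted p = 0.00015). Over the lines it was 2.04 (SE 0.49, adjusted p = 0.0014), a mean that covers unlike lines, and the effect differed between lines (adjusted p = 0.0071, against 7.56% of all genes that passed this test). Without M2rtTA, CLDN3 had 4, 18 and 4 counts in KP4 mCherry and 22, 25 and 47 in KP4 OVOL2, and it did not pass over the lines (0.79, SE 0.49, adjusted p = 0.288). The difference between arms, 1.25 (SE 0.68), did not pass either (adjusted p = 0.292).

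CLDN4, the neighbour of CLDN3, did not pass in the same lines as CLDN3. With M2rtTA it went from 19.8, 23.1 and 20.4 CPM to 38, 56.8 and 47.4 in PANC1, and from 31.7, 32.4 and 22.5 to 58.6, 43.0 and 61.8 in PK45H. In KP4 it went from 7.17, 3.58 and 5.05 to 10.9, 8.6 and 5.12, with overlap. Untreated PANC1 held 25.8 to 35.9 CPM, above its mCherry + M2rtTA libraries and below those with OVOL2 + M2rtTA. Untreated PK45H (29.6 to 36.4 CPM) and KP4 (3.84 to 11.3 CPM) overlapped their mCherry + M2rtTA libraries. PK45H, which held almost no CLDN3, was thus among the lines where CLDN4 rose. Over the lines the log2 fold change of CLDN4 was 0.93 (SE 0.20, adjusted p = 0.00034). Within lines it was 1.21 in PANC1 (SE 0.34, adjusted p = 0.029), 0.92 in PK45H (SE 0.22, adjusted p = 0.011) and 0.65 in KP4 (SE 0.40, adjusted p = 0.270). Without M2rtTA it passed only in PK45H among the lines, where 26.3, 24.4 and 38.4 CPM became 74.4, 54.0 and 52.9 (1.00, SE 0.22, adjusted p = 0.011). Over the lines it missed there (0.44, SE 0.20, adjusted p = 0.122), and passed without PANC1 mCherry replicate 3 (0.63, adjusted p = 0.014). The test of a difference between lines did not pass for CLDN4 with M2rtTA (adjusted p = 0.759) or without it (adjusted p = 0.434).

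CLDN1 rose most in the arm without M2rtTA, and most in KP4. KP4 mCherry had 30.8, 31 and 34.1 CPM and KP4 OVOL2 103, 108 and 94.9, while the levels with M2rtTA were 27.1, 23.7 and 20.2 against 31.7, 39.1 and 30.2. PK45H went from 55.2, 48.1 and 61.1 to 83.3, 88.5 and 104 without M2rtTA. Untreated KP4 held 26.5 to 41.2 CPM and untreated PK45H 58.1 to 82.3. PANC1 libraries overlapped in both arms, at 10.8 to 24.8 CPM. Without M2rtTA the log2 fold change was 1.68 in KP4 (SE 0.17, adjusted p = 6.8e-05), 0.71 in PK45H (SE 0.17, adjusted p = 0.018) and 0.84 over the lines (SE 0.12, adjusted p = 4.3e-06). The effect differed between lines (adjusted p = 0.0046, a test passed by 2.74% of all genes). With M2rtTA it was 0.25 over the lines (SE 0.12, adjusted p = 0.122) and 0.52 in KP4 (SE 0.17, adjusted p = 0.042).

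CLDN12 did not pass in either arm over the lines, with log2 fold changes of 0.26 (SE 0.17) and -0.11 (SE 0.17). Its levels stayed between 11.9 and 43.7 CPM in all 51 libraries. In PK45H without M2rtTA it went from 20.4, 25.6 and 26.4 CPM to 41.3, 32.7 and 33.2. Those libraries did not overlap, but the rise was short of the threshold (0.54, SE 0.26, adjusted p = 0.230). In the other lines and arms OVOL2 and mCherry libraries overlapped. Neighbouring groups in the order of CLDN12 means overlapped in 16 of 16 cases, as groups next to each other by mean often do.

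**Figure D2:**
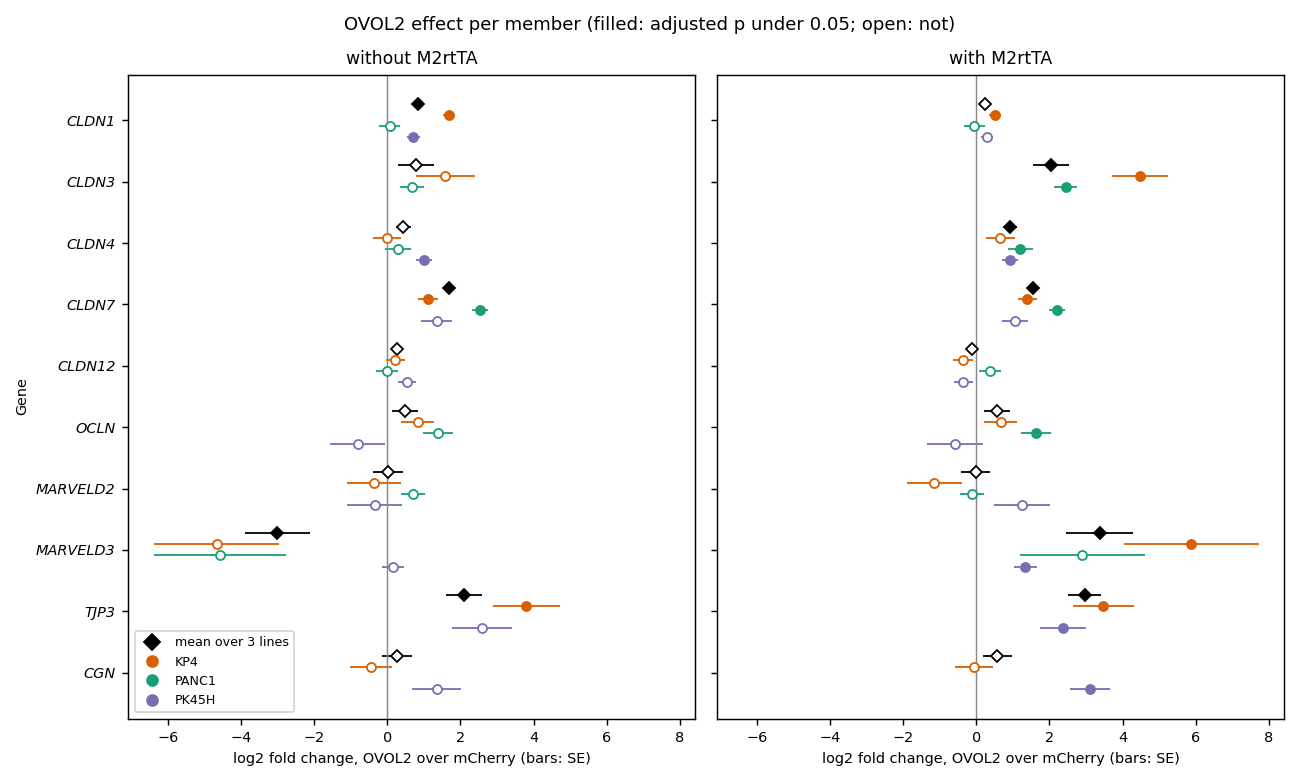
Log2 fold change of OVOL2 over mCherry (horizontal axis, bars are SE) for each gene (vertical axis), without M2rtTA on the left and with it on the right, as the mean over the 3 lines and in each line where the gene was tested. Filled points have an adjusted p under 0.05. CLDN7 and TJP3 lie to the right in both arms over the lines (1.69 and 2.09, then 1.55 and 2.96), and MARVELD3 lies on opposite sides with wide errors.

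Of the MARVEL genes, OCLN and MARVELD2 did not pass over the lines. OCLN had log2 fold changes of 0.49 (SE 0.35, adjusted p = 0.382) without and 0.58 (SE 0.35, adjusted p = 0.224) with M2rtTA. In PANC1 with M2rtTA it went from 43.1, 39.7 and 45.1 CPM to 74.8, 94.6 and 217, with no overlap, and rose by 1.63 (SE 0.41, adjusted p = 0.0167). Without PANC1 OVOL2 + M2rtTA replicate 3 this was 1.04 (adjusted p = 0.093). In PK45H the 3 mCherry libraries ranged from 14 to 98.8 CPM and those with M2rtTA from 18.8 to 87.3, so that a change there was not detectable at this spread. In KP4 without M2rtTA it went from 18.4, 17.5 and 22.8 to 41.5, 33.1 and 29, with no overlap but short of the threshold (adjusted p = 0.332). MARVELD2 had log2 fold changes of 0.01 (SE 0.40) and -0.01 (SE 0.40). Its transduced libraries ranged from 16.1 to 314 CPM. With M2rtTA, KP4 had 351, 1134 and 83 counts with mCherry and 317, 322 and 248 with OVOL2, and PK45H had 835, 458 and 453 against 339, 1009 and 1326. Both pairs of groups overlapped, with a wide spread inside a group.

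MARVELD3 was called in opposite directions in the arms, and single libraries moved the size of both values. Its counts in KP4 were 70, 40 and 485 untreated, 907, 16 and 5807 with mCherry, 162, 85 and 114 with OVOL2, 9, 17 and 36 with mCherry + M2rtTA, and 4372, 224 and 96 with OVOL2 + M2rtTA. In PANC1 they were 11, 23 and 431, then 4093, 43 and 230, then 84, 38 and 47, then 14, 68 and 44, then 29, 1183 and 39, in the same order of groups. In 6 of these 10 groups 1 library stood at least 5-fold above both others with at least 20 counts, by 8.10-fold to 23.6-fold over the next. PK45H had no such library: its counts were 45, 28 and 46 untreated, 30, 22 and 25 with mCherry, 49, 41 and 29 with OVOL2, 22, 14 and 29 with mCherry + M2rtTA, and 33, 36 and 41 with OVOL2 + M2rtTA. The PK45H groups with M2rtTA did not overlap.

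Over the lines MARVELD3 fell by 3.01 on the log2 scale without M2rtTA (SE 0.89, adjusted p = 0.0148) and rose by 3.38 with it (SE 0.92, adjusted p = 0.0041). The fall was -2.10 (adjusted p = 0.088) without KP4 mCherry replicate 3 and -1.75 (adjusted p = 0.149) without PANC1 mCherry replicate 1. The rise stayed past the threshold when any 1 library was left out, at 2.35 to 3.56. When the 7 libraries with a MARVELD2 or MARVELD3 spike were left out together, a set chosen after seeing the data, the values were -0.84 (adjusted p = 0.219) and 1.36 (adjusted p = 0.029). The same fits called 3 and 5 of the 10 genes. Within lines with M2rtTA, MARVELD3 rose by 5.87 in KP4 (SE 1.84, adjusted p = 0.034), which became 2.79 (adjusted p = 0.236) without the spiked KP4 library. In PANC1 the difference was 2.90 (SE 1.70, adjusted p = 0.293). The groups overlapped there, with medians of 9.16 CPM for OVOL2 + M2rtTA and 9.14 for mCherry + M2rtTA. In PK45H the difference was 1.34 (SE 0.31, adjusted p = 0.011), with 1.19 to 1.53 when 1 library was left out. The fit of all 51 libraries, which shares the spread of the spiked groups, gave adjusted p = 0.637. The PK45H means were 3.35 CPM with mCherry + M2rtTA and 8.56 with OVOL2 + M2rtTA. They were 6.26 untreated, 7.21 with mCherry and 8.16 with OVOL2, so the mCherry + M2rtTA control was the group that stood low.

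The spread between libraries of a group differed between these genes. The median coefficient of variation over the 17 groups was 59.7% for MARVELD3, 40.9% for MARVELD2 and 38.9% for OCLN. It was 49.0% for TJP3, 32.5% for CGN and 41.5% for CLDN3, and 14.2% to 21.3% for CLDN1, CLDN4, CLDN7 and CLDN12. The median over 10277 genes of at least 5 CPM was 17.4%, and the 95th percentile 39.2%. TJP3 and CGN averaged under 5 CPM in all groups but HPAFII and PATU8988S, so that set is of a higher level than these 2 genes. TJP3, CGN and CLDN3 have groups of a few counts, which OCLN and MARVELD2 do not. The longest coding transcripts of OCLN, MARVELD2 and MARVELD3 (GENCODE) share 14.3%, 10.4% and 9.09% of their 31-base words with 4348, 3143 and 1980 other genes. CLDN7, with a median coefficient of variation of 21.3%, shares 13% of its words with 3 other genes. Of its shared words, 7 lay in the last 500 of the transcript. CLDN1 and CGN share none, and CLDN3 and CLDN4 share 41 words with each other. None of the shared words of the MARVEL genes lay in the last 500 words of the transcript. The part of such words in the single high libraries was not tested.

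Of the plaque genes, TJP3 rose from almost nothing. KP4 had 1, 0 and 2 counts of it with mCherry and 21, 17 and 17 with OVOL2, and 1, 4 and 0 against 35, 19 and 16 with M2rtTA. In PANC1 it had 3, 3 and 6 against 3, 4 and 1, and 1, 2 and 0 against 8, 14 and 7 with M2rtTA. In PK45H it had 3, 0 and 0 against 10, 8 and 8, and 2, 2 and 7 against 10, 13 and 16 with M2rtTA. OVOL2 libraries lay above mCherry libraries without overlap in all 3 lines with M2rtTA, and in KP4 and PK45H without it.

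The summed CPM of TJP3 was 16.2-fold higher in KP4 OVOL2 than in KP4 mCherry (95% exact interval 5.25 to 80.7, counting error only) and 13.2-fold higher with M2rtTA (5.41 to 42.0). In PANC1 the ratio was 0.874 (0.310 to 2.33) without and 8.90 (2.76 to 45.7) with M2rtTA, and in PK45H 6.28 (1.92 to 32.4) and 5.08 (2.55 to 11). Over the lines the fitted log2 fold change was 2.09 (SE 0.50, adjusted p = 0.0025) without and 2.96 (SE 0.44, adjusted p = 1.9e-06) with M2rtTA, values that depend on the prior count where controls are near 0. The difference between arms did not pass (0.87, SE 0.74, adjusted p = 0.546).

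CGN passed in PK45H with M2rtTA only, among the lines in which it was tested (KP4 and PK45H). There it went from 3, 3 and 2 counts to 14, 14 and 21, a rise of 3.10 (SE 0.55, adjusted p = 0.0019). KP4 had 17, 7 and 7 against 5, 13 and 15 counts, and PANC1 8, 10 and 5 against 0, 8 and 2. Those groups overlapped. The effect with M2rtTA differed between lines (adjusted p = 0.0087), and over the lines CGN did not pass in either arm (0.26, SE 0.41, and 0.58, SE 0.39).

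Within lines the calls read as follows against the share of all genes. Without M2rtTA, 3 of 10 passed in KP4 (6.82% of all genes, 3.26% higher), 1 of 8 tested in PANC1 (5.08%, 2.12% higher) and 2 of 9 tested in PK45H (8.39%, 3.58% higher). With M2rtTA, 5 of 10 passed in KP4 (22.4%, 9.91% higher), 4 of 8 in PANC1 (13.9%, 5.76% higher) and 4 of 9 in PK45H (15.9%, 7.45% higher). All of these calls were rises. Fits within a line are small, and several calls were lost when 1 of the 6 libraries compared was left out: TJP3 in KP4 without M2rtTA (3.8) for 5 of them, CLDN1 in KP4 and CLDN4 in PANC1 with M2rtTA for 5, TJP3 in PK45H with M2rtTA (2.37) for 4, and CLDN7 in KP4 and CLDN1 in PK45H without M2rtTA for 3.

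The M2rtTA virus changed the OVOL2 effect on 2 of the 10 genes, against 7.72% of all genes tested. The effect on CLDN1 was smaller by 0.59 on the log2 scale with M2rtTA (SE 0.17, adjusted p = 0.032), a call lost without any of 10 libraries, at -0.56 to -0.50. The effect on MARVELD3 was larger by 6.39 (SE 1.28, adjusted p = 0.0013), and by 2.19 (adjusted p = 0.043) without the 7 spiked libraries. The transduction controls were compared in the same way. For mCherry against untreated, edgeR called 0 of 10 (0.489% of all genes), with 1 at an unadjusted p under 0.05, and DESeq2 called 0. For M2rtTA with mCherry against mCherry alone, edgeR called 0 (0.0602% of all genes), with 2 at an unadjusted p under 0.05, CLDN7 and MARVELD3, and DESeq2 called 1. The MARVELD3 value there was -4.37 (SE 0.95, adjusted p = 0.064), and the fit of all 51 libraries called 1 gene. These comparisons share mCherry libraries with the OVOL2 effects.

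The levels reached with OVOL2 + M2rtTA were set beside those of untreated HPAFII and PATU8988S, a comparison in which line and treatment differ at once. CLDN3 reached 72.3% of the mean of the 2 lines in KP4 and 71.3% in PANC1, from 3.39% and 13.4% with mCherry + M2rtTA, and stood at 1.01% in PK45H. CLDN4 reached 71.8% in PANC1 and 82.4% in PK45H, and 12.4% in KP4. CLDN7 reached 39.0% in PANC1 but 5.72% in KP4 and 4.60% in PK45H. TJP3 reached 48.3% in KP4, 20.5% in PANC1 and 33.6% in PK45H.

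By test, KP4 differed from HPAFII and PATU8988S in 6 of the 10 genes (37.0% of all genes), PANC1 in 6 (34.4%) and PK45H in 5 (32.8%). CLDN7 stayed lower in all 3 lines, by log2 differences of -4.04, -1.27 and -4.34 in KP4, PANC1 and PK45H. CLDN4 passed as lower in KP4 (-2.98), CLDN3 in PK45H (-6.46), and CGN in KP4 (-1.71) and PANC1 (-3.52). TJP3 passed as lower in PANC1 (-2.28) and PK45H (-1.59), and CLDN12 in KP4 (-0.83) and PK45H (-0.69). CLDN1 was lower in PANC1 (-1.15) and higher in PK45H (0.93). OCLN was higher in PANC1 (1.27), and 0.72 (adjusted p = 0.37) without PANC1 OVOL2 + M2rtTA replicate 3. The MARVELD2 calls in KP4 (-3.07) and PANC1 (-2.43) rested on HPAFII replicate 2, without which they were -0.66 and 0.028, neither past the threshold. The MARVELD3 call in KP4 (3.02) became -0.059 without KP4 OVOL2 + M2rtTA replicate 1, and the KP4 count of 6 fell to 3 without the 7 spiked libraries.

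**Figure D3:**
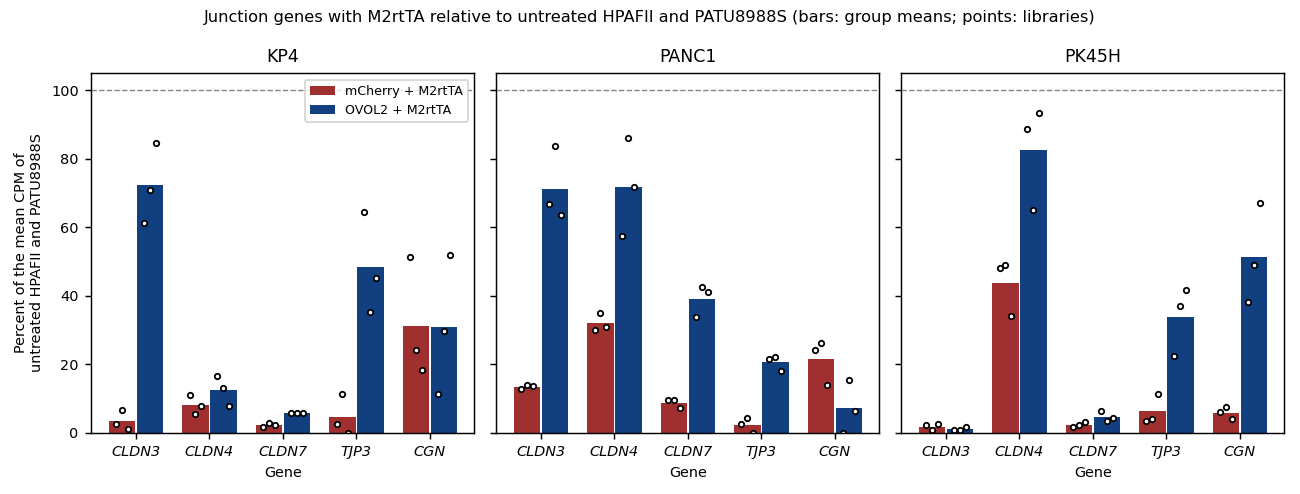
Level of 5 genes with mCherry + M2rtTA and OVOL2 + M2rtTA in each line, as a percent of the mean CPM of untreated HPAFII and PATU8988S (dashed line at 100). Bars are group means and points are libraries. With OVOL2 + M2rtTA, CLDN3 reaches 72.3% in KP4 and 71.3% in PANC1, and CLDN7 39.0% in PANC1. CLDN4 stands at 82.4% in PK45H, beside 43.7% with mCherry + M2rtTA.

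The other tight junction genes formed a list of 48, of which 37 were tested over the lines. Without M2rtTA 7 of 37 were higher and 2 lower, with a median of 0.03, beside 9.32% and 8.81% of all genes tested. With M2rtTA 9 were higher and 2 lower, with a median of 0.16, beside 32.9% of all genes in either direction and 15.7% higher. The 11 of 37 with M2rtTA are a share near that of all genes. Of the 10 other claudins tested, 0 passed without M2rtTA and 1, CLDN6, with it. Of 20 plaque and scaffold genes 4 were higher and 1 lower in each arm. Of 5 immunoglobulin-type genes 2 were higher without and 3 with M2rtTA, and 1 was lower in each. Of 2 angulins, the receptors that draw tricellulin to cell corners, 1 was higher in each arm.

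The named genes of this list were the called ones with up to 4 of the largest changes in each direction. CRB3, the Crumbs protein that sets apical polarity, rose by 2.14 (SE 0.43) without and 5.13 (SE 0.45) with M2rtTA. Its PANC1 counts with M2rtTA summed to 1 with mCherry and 176 with OVOL2, so the fitted values depend on the prior count; the ratio there was 162 (95% exact interval 28.7 to 6439). LSR, the angulin, rose by 1.2 (SE 0.10) and 1.35 (SE 0.10). With M2rtTA its effect differed between lines (adjusted p = 0.00013): it was 2.00 (SE 0.14) in KP4, 1.65 (SE 0.16) in PANC1 and 0.40 (SE 0.23, adjusted p = 0.259) in PK45H. F11R (JAM-A) rose by 1.33 (SE 0.09) and 1.08 (SE 0.09), and ESAM, an endothelial-type adhesion molecule, rose by 1.00 (SE 0.31) and 1.54 (SE 0.32); the first value was 0.87 (adjusted p = 0.057) without KP4 mCherry replicate 2. CLDN6 rose by 2.09 (SE 0.60) with M2rtTA, and by 1.21 (adjusted p = 0.331) without PK45H OVOL2 + M2rtTA replicate 2. JAM3 (JAM-C) fell, with -1.52 (SE 0.22) and -0.79 (SE 0.22), as did AMOTL1, an angiomotin, without M2rtTA (-0.79, SE 0.15) and PALS1, the Crumbs partner, with M2rtTA (-0.59, SE 0.16). Each edgeR adjusted p was at most 0.021.

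The patterns of the 10 genes over the 17 group means of log2 CPM were compared as a description. The points share lines and the depth of their libraries, and lines with high levels weigh heavily. CLDN3 and CLDN7 were the most alike pair (r = 0.84), and OCLN was most like CLDN7 (r = 0.71). TJP3 had r = 0.65 with CLDN7 and with CGN. CLDN1 had its highest r, 0.30, with CLDN12, and r = -0.53 with CLDN3. Of the 45 pairs, 11 had r over 0.5, a share that was not counted over pairs of all genes. Among 10277 genes of at least 5 CPM, genes outside the list with a high r to the mean pattern included CTNND1 (0.932), EPCAM (0.931), UNC93B1 (0.926) and ARL14 (0.922).

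**Figure D4:**
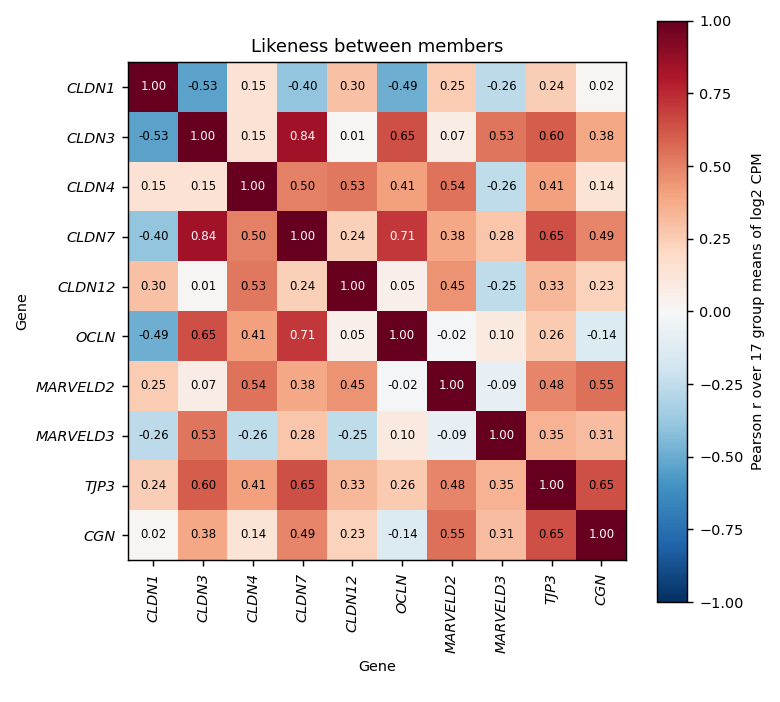
Pearson r between the 10 genes over the 17 group means of log2 CPM (prior count 2), with genes on both axes and colour from -1 to 1. CLDN3 and CLDN7 share the highest value, 0.84, and CLDN1 stands apart with its highest value at 0.30.

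In the order of group means, 7 of the 10 genes were highest in HPAFII or PATU8988S. MARVELD2 was among them through HPAFII replicate 2, since the other HPAFII libraries (79.8 and 75.7 CPM) lay below the mean of PK45H OVOL2 + M2rtTA (214 CPM). Neighbouring groups overlapped in 16 of 16 cases for CGN, CLDN12, MARVELD2, MARVELD3 and OCLN, in 15 for CLDN4, 14 for CLDN3, 13 for CLDN1 and TJP3, and 12 for CLDN7. Neither the share of genes highest in HPAFII or PATU8988S nor the share of neighbours that overlap was counted over all genes. For CLDN7, PATU8988S (296 ± 32.9 CPM, SD, n = 3) stood above HPAFII (143 ± 55.8), and PANC1 OVOL2 + M2rtTA (85.7 ± 10.4) above PANC1 mCherry + M2rtTA (19.1 ± 3.08), each without overlap. For CLDN3, PATU8988S (87.5 ± 13.9) stood apart from KP4 OVOL2 + M2rtTA (44.3 ± 7.27), which overlapped PANC1 OVOL2 + M2rtTA (43.8 ± 6.64) and HPAFII (35.2 ± 14.6).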

How the data were processed

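RNA of the 51 libraries was profiled by PLATE-seq, in which cDNA of each well is barcoded and pooled, from 100 ng of total RNA, per the labels' protocols. The authors deposited unnormalised counts, as whole numbers, for each gene symbol. The submitters' processing notes name kallisto 0.44.0 and GRCh38. Use of molecular identifiers is not given in the sources used here, so counts may include amplification copies. All columns were matched to samples, with 0 left over.

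Counts were filtered with filterByExpr by group, scaled with TMM and tested with edgeR 4.0.16 in R 4.3.3 (quasi-likelihood, two-sided). The effects over lines used 1 fit of the 45 libraries of KP4, PANC1 and PK45H, within-line effects a fit of 15, the untreated comparison the 15 untreated libraries, and the comparison with HPAFII and PATU8988S all 51. P-values were Benjamini-Hochberg adjusted over all genes tested (threshold 0.05), and SE came from the test statistic. The fits of some comparisons were tried on simulated counts with 1 spread for all genes and changes in well-counted genes only. That trial had no spiked libraries and no changed genes near 0 counts, so it does not cover such genes. CPM used TMM factors over all 51 libraries, and log2 CPM a prior count of 2. Shared 31-base words came from GENCODE transcripts. The genes, lists and tests were chosen with earlier results of these data known. Named genes outside the 10 were OVOL2, EPCAM and the called genes with up to 4 of the largest changes in each direction per effect. Alternatives were RLE scaling, other filters, DESeq2 1.42.0, robust dispersion, thinning to the smallest total, a replicate block, a fit of all libraries or only the groups compared, and leaving out each library. One gene named by the rule for likeness is not reported here.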

Additional observations from a re-analysis of the deposited data

Results flagged for a closer look

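The effect of OVOL2 differed between lines or between arms for 5 results, each by edgeR's test of the difference itself. Without M2rtTA, the effect on CLDN1 differed between the lines (adjusted p = 0.00456): all KP4 OVOL2 libraries held 94.9 to 108 CPM against 30.8 to 34.1 with mCherry, while PANC1 libraries overlapped. With M2rtTA, the effect on CLDN3 differed between the lines (adjusted p = 0.00709), with a rise in KP4 and PANC1 and 2 to 4 counts in the PK45H OVOL2 libraries. With M2rtTA, the effect on CGN differed too (adjusted p = 0.00869), with a rise in PK45H from 2 to 3 counts to 14 to 21. Between the arms, the effect on CLDN1 was smaller with M2rtTA (adjusted p = 0.0319). The effect on MARVELD3 was larger by 6.39 with M2rtTA (adjusted p = 0.0013), with 4372 counts in 1 KP4 OVOL2 + M2rtTA library and 5807 in 1 KP4 mCherry library. Without the 7 spiked libraries this difference was 2.19 (adjusted p = 0.043), and the value without M2rtTA was -0.84 (adjusted p = 0.219). In PK45H, which had no spiked library, the MARVELD3 values were 0.15 (adjusted p = 0.817) without and 1.34 (adjusted p = 0.011) with M2rtTA. There the mCherry + M2rtTA control averaged 3.35 CPM and the other PK45H groups 6.26 to 8.56.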

How the results depend on the processing

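Of the counts of called genes with 1 library left out, 228 stayed within 1.5 times their value and 36 did not. The latter had these ranges over all such fits: 1 to 2 for the change of the effect by M2rtTA, 1 to 2 for differences between lines without M2rtTA, 0 to 1 for M2rtTA without OVOL2, 1 to 3 in KP4 without and 3 to 4 with M2rtTA, 2 to 4 in PANC1 with M2rtTA, 1 to 2 in PK45H without M2rtTA, 0 to 2 for PATU8988S against HPAFII, and 3 to 5 for PK45H against HPAFII and PATU8988S. Thinning to the smallest total, which leaves fewer genes tested, gave 1 for the change by M2rtTA, 2 and 0 for differences between lines without and with M2rtTA, 1 and 2 in KP4 without and with M2rtTA, 1 in PK45H with M2rtTA, 4 for HPAFII and PATU8988S against the others, 1 for PATU8988S against HPAFII, and 6 other junction genes with M2rtTA. A mean count of at least 10 gave 2 and 1 for differences between lines and 2 in PK45H with M2rtTA. DESeq2 gave 3 for differences between lines without M2rtTA, 1 for M2rtTA without OVOL2, 2 in PANC1 without M2rtTA and 1 for PATU8988S against HPAFII. Robust dispersion gave 2 for differences between lines without M2rtTA and 1 for PATU8988S against HPAFII, the fit of only those groups 1, and the fit of all 51 libraries 1 for M2rtTA without OVOL2. Without the 7 spiked libraries the change by M2rtTA had 1 call, PATU8988S against HPAFII 1 and KP4 against HPAFII and PATU8988S 3. The share of all genes called is not given for any alternative fit, so these counts cannot be read as particular to these genes. The cause was not tested.

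Among the log2 fold changes that were refitted, those of MARVELD2 and MARVELD3 turned sign. MARVELD2 over the lines was -0.00081 without M2rtTA in the fit of all 51 libraries, and with M2rtTA 0.00486 with RLE, 0.00576 with the mean filter, 0.00451 with DESeq2, 0.080 with the block and 0.00536 without the spiked libraries; leaving out 1 library gave -0.28 to 0.35 and -0.19 to 0.46. MARVELD2 for PATU8988S against HPAFII was 0.37 and for PANC1 against HPAFII and PATU8988S 0.066 without the spiked libraries, with ranges of -5.08 to 0.37 and -2.71 to 0.028. MARVELD3 in PANC1 with M2rtTA was -0.026 without the spiked libraries and -0.023 to 3.44 with 1 library left out. The other MARVELD3 ranges were -0.19 to 0.32 in PK45H without M2rtTA, -0.045 to 1.71 between the untreated lines and -0.059 to 3.63 for KP4 against HPAFII and PATU8988S. Untreated, without the spiked libraries, MARVELD3 (2.11, adjusted p = 0.0024) and OCLN (1.00, adjusted p = 0.044) passed.

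With the replicate number as a block, the counts over the lines were 3 and 5, MARVELD3 without M2rtTA lost its call (-2.49, adjusted p = 0.079), and PATU8988S against HPAFII had 1. Numbers are not said to pair libraries: same-numbered libraries had mean correlations of their deviations of -0.005 (KP4), 0.024 (PANC1) and -0.025 (PK45H), and 11 of 45 libraries correlated best with their own number.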
